A study of Mus musculus with 89 samples.

Results

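The genes described here encode the factors that start protein synthesis and lengthen the growing chain. They were chosen by name as rows of both deposited tables whose symbol begins with Eif1 to Eif6 or with Eef1 or Eef2, with pseudogene rows and the Eif2ak kinases left out. The rule found 57 genes, all 57 in both tables, of 27538 genes in the table of cell clumps and 23379 in the table of single cells. The 77 ribosomal protein genes were the reference. Of these, 20 belong to the landmark genes that place a clump along the axis and 57 do not, so both sets are given apart, and no factor gene is a landmark.

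The study sorted clumps of attached cells and single cells of the jejunum, a middle stretch of the small intestine, from male C57BL/6 mice of 3 months (3 plates of single cells of mouse 2 are labelled 4 months) and read them by MARS-seq, a plate-based method that counts molecules from the 3′ end. No mouse carried an altered gene or received a treatment. Clumps of mice 1 to 5 were sorted by DNA content as pairs (4n, 27 plates, all 5 mice) or as larger clumps (above 4n, 14 plates, mice 1, 4 and 5), and single cells came from 44 plates of 4 mice. Whether a mouse number means the same animal in both tables is not given in the sources used here, so mice were numbered apart. After filtering, 5883 clumps received a zone from landmark genes: 3529 crypt, 1550 mid-villus and 804 villus tip. Pairs and larger clumps were summed together, and their mix could differ by zone. Larger clumps were 315 of 498 in the crypt and 21 of 121 at the tip in mouse 1. They were 1780 of 2098 and 21 of 27 in mouse 4, and 138 of 155 and 56 of 68 in mouse 5. UMIs, the counted molecules, were summed per mouse and zone, and levels are given as CPM, the count of a gene scaled by the total UMIs of its sum. A 3′ count does not grow with the length of the transcript, so CPM of different genes can be set side by side. In such sums, fewer cells of a type and less RNA per cell cannot be told apart.

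Initiation begins when eIF2 carries the initiator tRNA to the small ribosomal subunit, where eIF1, eIF1A and the large eIF3 complex prepare it. The eIF4 group binds the cap and unwinds the leader of the mRNA, the subunit scans to the start codon, and eIF5 and eIF5B bring in the large subunit, which eIF6 holds apart until then. In elongation eEF1A delivers each aminoacyl-tRNA, the eEF1B subunits recharge it with GTP, and eEF2 moves the ribosome on. Crypts hold the dividing cells of the epithelium, and their progeny mature while they move up the villus. Ribosomal proteins and several factors are encoded by TOP mRNAs, which begin at the cap with a C and a tract of pyrimidines and whose translation is under mTORC1 control.

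From textbook knowledge, 9 of the 57 genes were listed as encoding TOP mRNAs: Eef1a1, Eef1b2, Eef1d, Eef1g, Eef2, Eif3e, Eif3f, Eif3h and Eif4b. The first bases around the start are shown for 5 of them and for 4 factor genes that were not called between tip and crypt clumps. They are 30-base stretches from RefSeq on GRCm38.p6, 5′ to 3′ on the strand of the gene, with the longest run of at least 7 C or T between 20 bases before and 25 bases after the annotated start in capitals. Eef1a1 (chr9:78481710-78481739, minus strand), Eef2 (chr10:81176635-81176664, plus), Eif3f (chr7:108934401-108934430, plus) and Eif4b (chr15:102073750-102073779, plus) hold such a run. Relative to the annotated start, the runs begin at -5 in Eef1a1, 14 in Eef2, -4 in Eif3f and -13 in Eif4b. None of them begins at that start, and the run of Eif4b lies wholly before it. Eef1b2 (chr1:63176816-63176845, plus), Eif1 (chr11:100319934-100319963, plus), Eif4a2 (chr16:23107453-23107482, plus), Eif4h (chr5:134639395-134639424, minus) and Eif5 (chr12:111538086-111538115, plus) do not.
Eef1a1: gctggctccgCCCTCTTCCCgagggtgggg
Eef2: acgtcagcggTCTCTTCCgccgcagccgcc
Eif3f: ctgttctaggCTCTCTCTCTTTCTCggcaa
Eif4b: gtcgcgcaggTCTTCCCgtcggacgccgcg
Eef1b2: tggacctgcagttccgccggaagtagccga
Eif1: gcgctggcgtcacaggggcggctatataag
Eif4a2: ccgcggaaaccccgtaggagcagggcggcc
Eif4h: gtgcgacttgcgatcaggcagcgcggcgga
Eif5: gagatcgacgtgcatgcgagccaatgacaa

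RefSeq starts were at hand for 45 of the 57 genes. A run was found in 4 of 5 listed TOP genes, in 11 of 40 other factor genes (27.5%) and in 34 of 56 ribosomal protein genes (60.7%), against 29.9% of all genes in the table and 26.6% of its 32851 promoters. These are matches of letters near 1 or more annotated starts on the gene's own strand, and say nothing of which start these cells used. The sequences shown are examples: Eif1ad, Eif2b2, Eif2s3y, Eif4e and Eif4enif1 were not called between tip and crypt clumps either and hold a run near at least 1 start.

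Summed UMIs ranged from 369045 to 19001409 per mouse in the crypt, from 172503 to 2417241 in the mid-villus and from 79055 to 816189 at the tip, so tip values are the least precise. A count of 0 at the tip still allows up to 37.9 CPM in mouse 5 and 37.2 CPM in mouse 4, but 3.68 CPM in mouse 3 (3 counts of each sum, counting error only). Markers of mature enterocytes, the absorptive cells, summed to 4079 to 16699.9 CPM in the crypt and to 54064 to 98107 CPM at the tip, and 23 markers of stem and dividing cells to 789 to 2037 CPM against 75.2 to 533 CPM, as the zone names say.

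The factor genes took a smaller share of the UMIs toward the tip, and the ribosomal protein genes fell further. The 57 factor genes summed to 9102 ± 2561 CPM in the crypt, 3918 ± 1204 CPM in the mid-villus and 2979 ± 1079 CPM at the tip (mean ± SD, n = 5 mice). The 57 ribosomal protein genes that are no landmarks summed to 69199.9 ± 16303, 13212 ± 7171 and 8155 ± 7446 CPM, and the 20 landmarks to 20413 ± 4937, 3659 ± 1783 and 2333 ± 1973 CPM. In every mouse the order was crypt, mid-villus, tip for both. The zones themselves lean on ribosomal genes: with landmarks free of them, the median log2 change from mid-villus to tip was 0.03 for the factors and 0.16 for the ribosomal proteins outside the landmarks, and that from crypt to tip -0.75 and -1.16, so the order of mid-villus and tip depends on the zone rule. The crypt sum of the factors exceeded the tip sum 3.06-, 3.74-, 2.55-, 2.92- and 3.54-fold in mice 1 to 5, and that of the ribosomal proteins outside the landmarks 13.1-, 20.8-, 11.2-, 4.17- and 10.6-fold. Mouse 4, whose tip sum holds 27 clumps, stood apart with 21296 CPM of ribosomal proteins at the tip, where the other mice had 3249 to 6249 CPM, and its stem and dividing cell markers stood at 533 CPM there, where the others had 75.2 to 189.7 CPM. Their part in the values of mouse 4 was not tested.

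**Figure D1:**
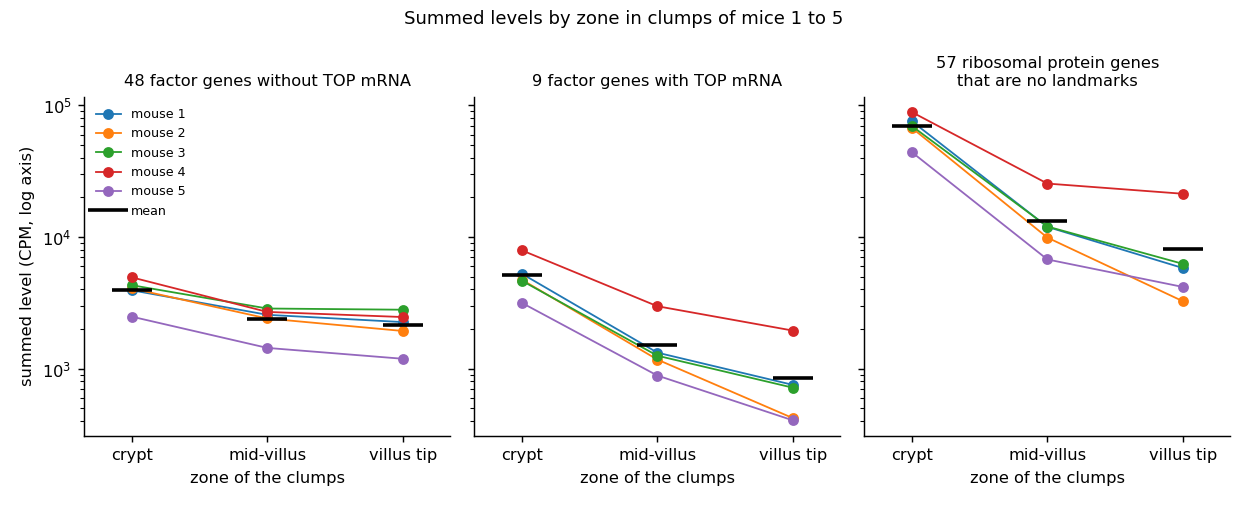
Summed level (CPM, log axis) of 48 factor genes without TOP mRNA, 9 with TOP mRNA and 57 ribosomal protein genes that are no landmarks, by zone, 1 line per mouse, black bars the mean. The 9 TOP genes fell from 5154 to 848 CPM and the 48 others from 3948 to 2130.2 CPM, while mouse 4 keeps the highest ribosomal level at mid-villus and tip.

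The fall was unequal within the family. The 9 genes with TOP mRNA summed to 5154 ± 1738 CPM in the crypt and 848 ± 635 CPM at the tip, a fold of 4.07 to 11.3 in single mice, and the 48 others to 3948 ± 904 and 2130.2 ± 614 CPM, a fold of 1.54 to 2.11. The folds of the TOP genes and of the others do not overlap. For every 100 UMIs of non-landmark ribosomal protein genes there were 12.1 to 14.5 UMIs of factor genes in the crypt, 22.3 to 36.2 in the mid-villus and 20.7 to 72.5 at the tip, the lowest tip ratio being that of mouse 4. These values depend on the zone rule. With landmarks free of ribosomal genes, the crypt over tip fold was 1.7 to 3.28 for the TOP genes and 1.37 to 2 for the others, which overlap, although the TOP fold was the higher in each of the 5 mice, in mouse 4 by 1.7 against 1.66. The ratio to ribosomal protein genes was then 11.6 to 14.5 in the crypt, 14.7 to 24.6 in the mid-villus and 13.3 to 19.3 at the tip.

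Each gene was then tested between tip and crypt with edgeR, on sums scaled by TMM. Of the 57 factor genes, 52 passed the filter on low counts, and 29 were lower and 2 higher at the tip at an adjusted p under 0.05, with a median log2 change of -1.18. Of all 7445 genes tested, 30.4% were called lower and 22.7% higher (53.1% in either direction), with a median of -0.15. All 9 TOP genes were lower (median -2.36), as were 20 of the 43 others tested (median -0.86). All 57 non-landmark ribosomal protein genes were lower, with a median of -3.04, Rplp1 from 2705 to 250.4 CPM and Rps24 from 1928 to 177 CPM. In 15 of the 52 genes every tip value lay below every crypt value, as did 21.8% of all genes tested. Genes seen mainly in the crypt can pass the filter through the crypt alone, so these counts describe the tested genes only.

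The genes that did not pass were Eef1e1, Eef2kmt, Eif2b3, Eif4e1b and Eif5a2, with 447, 548, 236, 4 and 1 UMIs in all crypt sums and 0, 0, 0, 1 and 0 at the tip. Eef1e1, an auxiliary protein of the multi-synthetase complex, Eef2kmt, a methyltransferase of eEF2, and Eif2b3, a subunit of the eIF2B exchange factor, had 0 UMIs at the tip. Without the filter all 3 were called lower there, beside 4618 of all 24640 genes called.

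**Figure D2:**
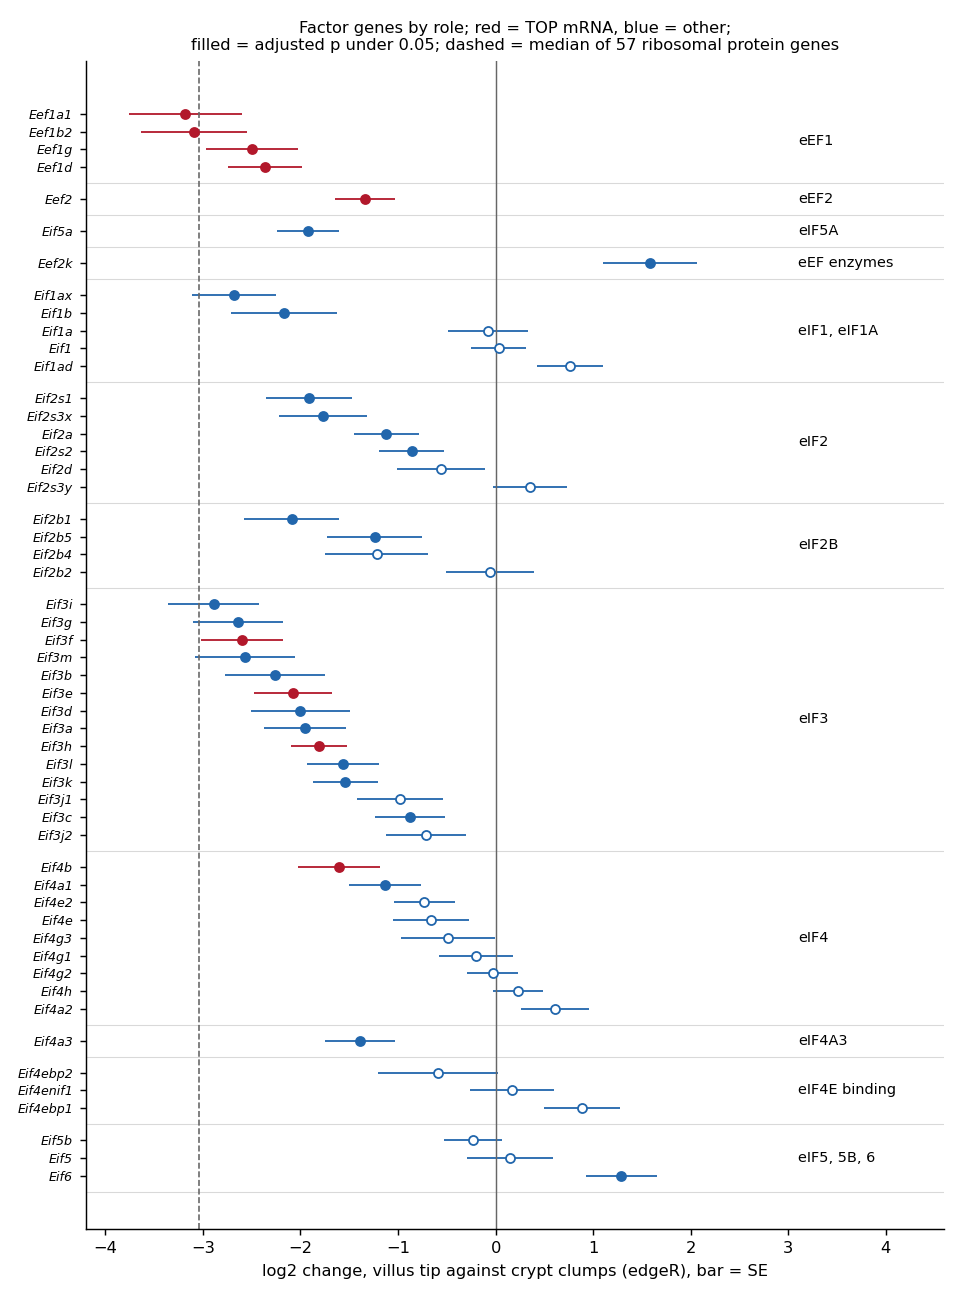
Log2 change of 52 tested factor genes between villus tip and crypt clumps (edgeR, bars 1 SE), grouped by role, red for TOP mRNA and filled for an adjusted p under 0.05. The 4 eEF1 genes reach -3.18 to -2.36, next to the dashed median of the ribosomal proteins at -3.04, the eIF4 group stays between -1.6 and 0.61, and Eef2k and Eif6 lie on the other side of 0.

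By role, the eEF1 genes had the lowest median log2 change, -2.8, and Eef1a1 and Eef1b2 the lowest values of single genes. Eef1a1 (chr9:78478449-78489151 on GRCm38), which encodes the carrier of aminoacyl-tRNA and had the highest level of the 57 genes in the crypt, was at 2259, 1787, 1780.2, 3509 and 1563 CPM in the crypts of mice 1 to 5, at 429, 423, 373, 1179 and 232 CPM in the mid-villus and at 84.7, 80.2, 126, 806 and 50.6 CPM at the tip. Crypt and tip did not overlap, and mouse 4 was the highest in each zone. Its log2 change at the tip was -3.18 ± 0.58 (SE, adjusted p = 0.000112 by edgeR). Reads of Eef1a1 may be shared with its many processed pseudogenes, and how the counting split them was not tested.

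The exchange subunits followed. Eef1b2, the catalytic subunit that recharges eEF1A, was at 761, 691, 791, 1256 and 404 CPM in the crypt and at 54.8, 40.1, 61.3, 273 and 0 CPM at the tip (log2 change -3.09 ± 0.54). Eef1g, a structural subunit, was at 257 to 711 CPM in the crypt and 12.6 to 248 CPM at the tip, with mouse 4 again the highest (log2 change -2.5 ± 0.47). Eef1d, the second exchange subunit, was at 75.9 to 180.1 CPM against 5.01 to 37.9 CPM (log2 change -2.36 ± 0.38, adjusted p = 3.5e-05 by edgeR). In all 4 tested eEF1 genes the crypt values lay above the tip values.

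Eef2 (chr10:81176631-81182498), the translocase, fell less than the eEF1 genes. It was at 918, 890.5, 844, 1319 and 461 CPM in the crypt, at 453, 331, 419, 789.7 and 307 CPM in the mid-villus and at 389, 155, 310, 384 and 215 CPM at the tip. Its crypt values lay above all tip values (log2 change -1.34 ± 0.31, adjusted p = 0.00107 by edgeR), although Eef2 is listed among the TOP genes. Eif5a, which helps the ribosome over difficult stretches such as runs of proline and carries the modified residue hypusine, was at 238, 235, 256, 494 and 336 CPM in the crypt and 94.7, 45.1, 66.2, 86.8 and 63.2 CPM at the tip (log2 change -1.92 ± 0.32, adjusted p = 5.28e-05 by edgeR). Its values in both zones were apart in every mouse.

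Eef2k (chr7:120842831-120907450), the kinase that phosphorylates eEF2 and slows elongation, went the other way. It was at 8.05, 5.71, 7.24, 15.9 and 5.42 CPM in the crypt, at 4.57, 1.23, 4.96, 0 and 0 CPM in the mid-villus and at 19.9, 25.1, 23.3, 37.2 and 0 CPM at the tip. The tip was above the crypt in 4 of 5 mice (log2 change 1.58 ± 0.48, adjusted p = 0.00867 by edgeR), the mid-villus below it in 5 of 5 (-1.5 ± 0.53, adjusted p = 0.0272), and the tip above the mid-villus by 3.09 ± 0.59 (adjusted p = 0.00155). The level is low, 36 UMIs in all tip sums and 17 in all mid-villus sums, and the 0 of mouse 5 at the tip allows up to 37.9 CPM. The tip call ended without mouse 2 (1.36, adjusted p = 0.0576) and when zones were set with a landmark list free of ribosomal genes (0.44, adjusted p = 0.464). The mid-villus call ended without mouse 2 or 5, with that landmark list (-0.93, adjusted p = 0.103) and without the filter on low counts (-1.45, adjusted p = 0.0724), and without mouse 3 or 4 the gene was too low to test.

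**Figure D3:**
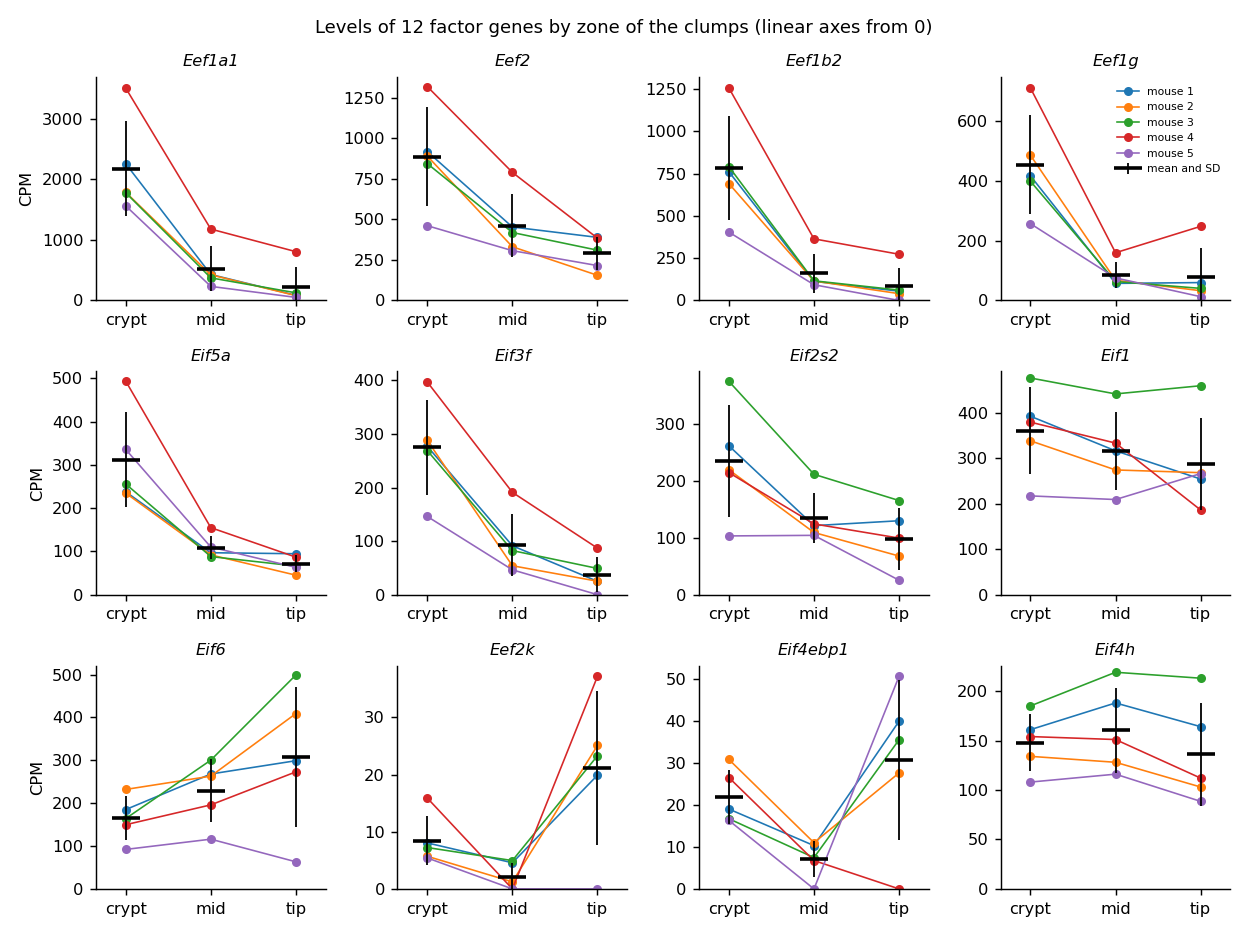
Level (CPM, linear axes from 0) of 12 factor genes in crypt, mid-villus and villus tip clumps, 1 line per mouse, black bars the mean and SD over 5 mice. The means of Eef1a1 go from 2179.7 to 229 CPM and those of Eif6 from 165 to 308 CPM, while Eef2k and Eif4ebp1 have their lowest mean in the mid-villus.

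Next came the eIF3 complex, which holds the small subunit ready for the mRNA. Of its 14 genes, all tested, 12 were lower at the tip and none higher, beside 30.4% of all genes lower, with a median log2 change of -1.98. Eif3f, listed as TOP, was at 277, 288, 269, 397 and 146 CPM in the crypt and 24.9, 25.1, 49, 86.8 and 0 CPM at the tip (log2 change -2.6 ± 0.42, adjusted p = 3.57e-05 by edgeR). Eif3i, not listed as TOP, was at 182, 156, 175, 258 and 108 CPM against 24.9, 7.52, 13.5, 74.4 and 12.6 CPM (log2 change -2.89 ± 0.47), and Eif3g changed by -2.64 ± 0.46. Eif3j1 and Eif3j2, near-identical copies whose reads may not be told apart, missed the threshold at -0.98 ± 0.44 and -0.71 ± 0.41. Both passed with the mouse as a block (-1.14, adjusted p = 0.0041, and -0.91, adjusted p = 0.0194 by edgeR), which made 14 of 14 lower, beside 4593 of all 7445 genes called. With landmarks free of ribosomal genes, Eif3c, Eif3f and Eif3k lost their calls. Eif3c, a core subunit, passed at -0.88 ± 0.36 (adjusted p = 0.0436 by edgeR) and lost its call without mouse 1, 3 or 4. The call was also lost with that landmark list, with DESeq2 size factors and with clumps with markers of other cell types left out.

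The genes of eIF2, the carrier of initiator tRNA, were lower for the alpha subunit Eif2s1 (log2 change -1.91 ± 0.44), the beta subunit Eif2s2 (-0.86 ± 0.33) and the X-linked gamma subunit Eif2s3x (-1.77 ± 0.45), and also for Eif2a (-1.12 ± 0.33), an alternative initiator tRNA carrier. Eif2s2 was at 261, 219, 374, 214 and 103 CPM in the crypt and 129.6, 67.7, 165, 99.2 and 25.3 CPM at the tip, lower in each mouse, but the ranges over mice overlap and the call (adjusted p = 0.0356 by edgeR) was lost without mouse 1, 2, 4 or 5. Of the 4 tested genes of eIF2B, which reloads eIF2 with GTP, Eif2b1 (-2.09 ± 0.49) and Eif2b5 (-1.24 ± 0.49) were lower, the latter not without mouse 2, 3, 4 or 5.

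The scanning factors split. Eif1ax, the X-linked gene of eIF1A, fell from 85.2, 65.1, 80.9, 64.2 and 24.4 CPM in the crypt to 4.98, 2.51, 11, 24.8 and 0 CPM at the tip (log2 change -2.68 ± 0.43, adjusted p = 2.74e-05 by edgeR). Its autosomal copy Eif1a, which may share its reads, changed by -0.08 ± 0.41. Eif1, which guards the choice of the start codon, was at 392, 338, 476, 379 and 217 CPM in the crypt and 254, 268, 459, 186 and 266 CPM at the tip, 1 of the 8 most abundant factors in the crypt and the only one of these 8 that was not called lower (0.03 ± 0.28, adjusted p = 0.934). Eif1b, its close copy, fell by 2.17 ± 0.54 on the log2 scale, and Eif1 and Eif1b may share reads. Eif1ad, a protein with an eIF1A-like domain, was at 13.5 to 45.6 CPM in the crypt and 34.8 to 81 CPM in the mid-villus, higher there in 5 of 5 mice (0.79 ± 0.31, adjusted p = 0.0492 by edgeR). It passed without mouse 5 but not when any of the other 4 mice was left out, nor with library sizes outside the ribosomal protein and mitochondrial genes (0.54, adjusted p = 0.209), the landmark list free of ribosomal genes (0.46, adjusted p = 0.235), pairs only, clumps with markers of other cell types left out or no filter on low counts.

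The eIF4 group binds the cap and opens the leader, and 2 of its 9 genes tested were lower, beside 30.4% of all genes. These were Eif4b, a helper of the helicase that is listed as TOP (log2 change -1.6 ± 0.42, adjusted p = 0.00299 by edgeR), and the helicase gene Eif4a1 (-1.13 ± 0.37, adjusted p = 0.0142). The scaffolds Eif4g1, Eif4g2 and Eif4g3 changed by -0.2 ± 0.38, -0.03 ± 0.26 and -0.49 ± 0.48, the cap-binding Eif4e by -0.66 ± 0.39, the second helicase gene Eif4a2 by 0.61 ± 0.35 and the helper Eif4h by 0.23 ± 0.26. Eif4e2, a relative of Eif4e, was lower in 5 of 5 mice and just missed the threshold at -0.73 ± 0.31 (adjusted p = 0.0508). With the mouse as a block both Eif4e2 (-0.72, adjusted p = 0.0155) and Eif4a2 (0.59, adjusted p = 0.0316) passed. Eif4h was at 161, 134, 185, 154 and 108 CPM in the crypt and 164, 103, 213, 112 and 88.5 CPM at the tip, nearly the same range in both. Eif4a3, a core protein of the exon junction complex and not of translation initiation, fell by 1.39 ± 0.36 on the log2 scale.

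The repressors that bind eIF4E did not pass between tip and crypt. Eif4ebp1, released from eIF4E when mTORC1 phosphorylates it, was at 19, 30.8, 16.7, 26.5 and 16.3 CPM in the crypt, at 10.3, 11, 7.45, 6.75 and 0 CPM in the mid-villus and at 39.9, 27.6, 35.5, 0 and 50.6 CPM at the tip. All mid-villus values lay below all crypt values (log2 change -1.36 ± 0.4, adjusted p = 0.00995 by edgeR), and the tip exceeded the mid-villus by 2.25 ± 0.45 (adjusted p = 0.0027) in 4 of 5 mice. The tip exceeded the crypt by 0.89 ± 0.39 (adjusted p = 0.0626), or by 0.98 with the mouse as a block (adjusted p = 0.0122).

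Of the factors that join the subunits, Eif5, the GTPase activator of eIF2, and Eif5b, the joining GTPase, changed by 0.15 ± 0.44 and -0.23 ± 0.3. Eif6 (chr2:155819832-155826925), which keeps free large subunits from joining and also serves in their assembly, was higher at the tip. It was at 185, 232, 164, 149.7 and 92.1 CPM in the crypt, at 268, 263, 300.3, 196 and 116 CPM in the mid-villus and at 299, 409, 499, 273 and 63.2 CPM at the tip. The tip was above the crypt in 4 of 5 mice and below it in mouse 5 (log2 change 1.29 ± 0.36, adjusted p = 0.00509 by edgeR). The call was lost without mouse 3 (0.91, adjusted p = 0.0683) and in pairs alone (0.59, adjusted p = 0.344), and held with the landmark list free of ribosomal genes (0.86, adjusted p = 0.0383).

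Scaling matters for the 2 genes that rose. With library sizes taken outside the ribosomal protein and mitochondrial genes, the median of all genes moved from -0.15 to -0.66, no factor gene was called higher and 35 were called lower, with 4052 of all 7445 genes called. Eef2k then stood at 1.04 (adjusted p = 0.0747) and Eif6 at 0.77 (adjusted p = 0.0798), both still above the shifted median. With zones set by landmarks free of ribosomal genes, 26 of 54 factor genes were lower and 1 higher (median -0.75), with 3625 of all 8094 genes called, and all 57 ribosomal protein genes outside the landmarks were lower, with a median of -1.16 in place of -3.04. Eef2, Eif3f and Eif4b of the 9 TOP genes then lost their calls.

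Paneth cells, the secretory cells of the crypt base, move with the zones: their 10 markers, all detected in each zone, summed to 13.7 to 14728 CPM in the crypt and to 15 to 548 CPM at the tip. In mouse 2 they were at 13.7 CPM in the crypt and 15 CPM at the tip, where the crypt sum of the factors was 3.74-fold the tip sum. The part of Paneth cells in the result was not tested. Leaving out clumps with 10 or more UMIs of goblet, enteroendocrine, tuft, Paneth or immune markers left 30 of 50 factor genes lower and 3 higher, with a median of -1.41, beside 3556 of all 6781 genes called. The 39 goblet markers stood at 1527 ± 473 CPM in the crypt and 3553 ± 2575 CPM at the tip, and their part in the result was not tested apart from the other markers.

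Most of the change lay between crypt and mid-villus. There 31 of the 52 genes were lower and 1 higher by edgeR, with a median of -1.07, while 23.7% of all 7445 genes were lower and 16.6% higher (40.3% together). All 9 TOP genes were lower, Eef1g by 2.34, Eef1b2 by 2.2, Eef1d by 2.05 and Eef1a1 by 2 on the log2 scale. Between mid-villus and tip, the 2 genes called were Eef2k and Eif4ebp1, both higher, neither with the landmark list free of ribosomal genes, and none was called lower, where 6.02% of all genes were higher and 6.33% lower (12.3% together). Of the 57 non-landmark ribosomal protein genes, 3 were lower in that step. Without mouse 1, 2 or 3 this count was 0, without mouse 4 it was 16 and without mouse 5 it was 1. With the mouse as a block it was 31. With that block 3 factor genes were higher and 3 lower, beside 2050 of all 7445 genes called, since Eif6 (0.68, adjusted p = 0.0222), Eef1a1 (-1.39, adjusted p = 4.6e-05), Eef1b2 (-0.84, adjusted p = 0.0186) and Eif3f (-0.91, adjusted p = 0.0148) were added.

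Other genes around translation were counted from lists fixed by name. The shares of all genes to read them against are the above 30.4% lower and 22.7% higher, and no difference between lists was tested. Of 22 aminoacyl-tRNA synthetases and their partners, which load tRNAs, 16 were lower at the tip and none higher (median -1.56). Of 17 tested genes of ribosome assembly, 14 were lower (median -2.92), and of 10 other genes known for TOP mRNAs all 10 were lower (median -2.79), among them Tpt1 and Naca. Also lower were Abce1, the recycling factor, of 4 release and recycling genes, Pabpc1 and Paip2 of 4 poly(A)-binding genes, and Dohh, the second enzyme of hypusine synthesis, of 2. Of 9 tested genes of the mTORC1 pathway, Larp1, a repressor of TOP mRNAs, and Deptor were lower and Rps6kb2 higher. In the integrated stress response, which acts through eIF2, Eif2ak2, Ddit3, Trib3 and Ppp1r15b were higher and Asns lower of 7 tested.

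The same comparison was made within single cells of the other table. After filtering, 5199 cells were kept and clustered, and 2466 were called enterocyte-like from 13 markers among the leading genes of their cluster. The same landmark rule placed 354 of them in the crypt zone, 881 in the mid-villus and 1181 at the tip. Mouse 1 has only 6 crypt cells there, for which 0 counts allow up to 232 CPM. The factor genes summed to 5599 ± 752 CPM in the crypt zone, 1816 ± 472 in the mid-villus and 1167 ± 296 at the tip (n = 4 mice), with crypt over tip at 6.61, 3.64, 5.91 and 4.01 in mice 1 to 4. The non-landmark ribosomal protein genes summed to 36554 ± 5492, 4444 ± 2106 and 1586 ± 658 CPM.

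In the zones of single cells the TMM factors ran from 1.17 to 3.18 in the crypt and from 0.476 to 0.796 at the tip. Log2 changes between these zones are thus relative to the bulk of other genes and not to all UMIs. By edgeR, 34 of the 57 factor genes could be tested between the tip and crypt zones of single cells. There 18 were called lower and 2 higher (median -1.23), against 28.6% lower and 32.2% higher (60.9% together) of all 3819 genes tested. In 16 of the 34 every tip value lay below every crypt value, as did 27.9% of all genes tested. All 57 non-landmark ribosomal protein genes were lower (median -3.67). Eef1a1 was at 1083, 1240.2, 2069 and 1699 CPM in the crypt zone and at 15.2, 56.4, 76.1 and 76.4 CPM at the tip (log2 change -3.86 ± 0.49, adjusted p = 7.31e-07). Eif3e, a TOP-listed subunit of eIF3, changed by -3.32 ± 0.55, Eif3m, another subunit, by -3.36 ± 0.46 and Eef1b2 by -3.29 ± 0.42. Eif6 was at 0, 69.5, 68.9 and 117 CPM in the crypt zone and at 83.5, 182, 85.6 and 153 CPM at the tip, higher in mice 2, 3 and 4, while the 0 of mouse 1 allows up to 232 CPM and gives no direction (log2 change 1.57 ± 0.35, adjusted p = 0.000512 by edgeR). The other gene called higher was Eif1ad, which was at 77.4, 5.8, 26.8 and 18.3 CPM in the crypt zone and at 20.5, 18.8, 28.5 and 34.5 CPM at the tip. The crypt value of mouse 1 is 1 UMI, and in mice 2, 3 and 4 the level was higher at the tip (1.23 ± 0.41, adjusted p = 0.0119 by edgeR). The call was lost with library sizes outside the ribosomal protein and mitochondrial genes (0.26, adjusted p = 0.732), with the landmark list free of ribosomal genes (0.3, adjusted p = 0.609) and without mouse 4.

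Set side by side, 34 genes were tested in both tables. All 18 genes lower in single cells were also lower in clumps, Eif6 was higher in both, Eif3c and Eif4a1 were called in clumps alone and Eif1ad in single cells alone, and 12 were called in neither, among them Eif1, Eif4a2, Eif4g1, Eif4g2, Eif4h, Eif5 and Eif5b. Both tables were zoned with the same landmarks. With landmarks free of ribosomal genes, 18 of 38 factor genes in single cells were lower and 1 higher (median -1.29), beside 2194 of all 4288 genes called. The ribosomal proteins outside the landmarks then had a median of -2.9, and Eef1d, Eef2 and Eif1ad lost their calls. Library sizes outside the ribosomal protein and mitochondrial genes moved the median of all genes in single cells from 0.22 to -0.77, with 25 factor genes lower and none higher, beside 2119 of all 3819 genes called. Eif6 was then at 0.6 (adjusted p = 0.201) and Eif1 at -1.08 (adjusted p = 0.0227). Eef2k was too sparse to be tested there, with 3, 2 and 30 UMIs in the crypt, mid-villus and tip zones.

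**Figure D4:**
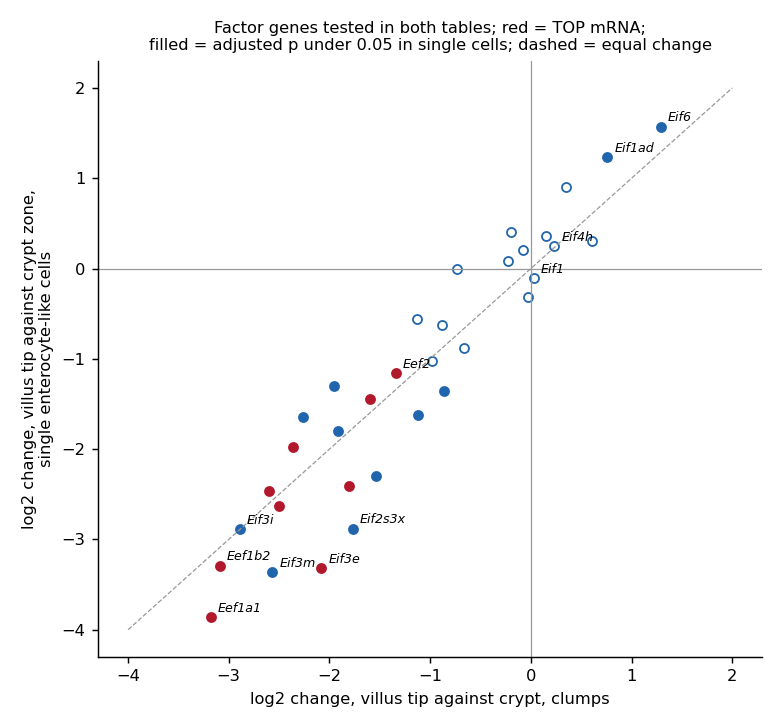
Log2 change between villus tip and crypt in clumps (x axis) and in single enterocyte-like cells (y axis) for 34 factor genes tested in both, red for TOP mRNA, filled for an adjusted p under 0.05 in single cells, dashed where both changes are equal. Eef1a1 lies lowest at -3.18 and -3.86, and Eif6 lies highest at 1.29 and 1.57.

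Across cell classes, the other clusters were set against the enterocyte-like cells: 210 goblet-like (mucus), 187 tuft-like (chemosensory), 244 enteroendocrine-like (hormone) and 1700 immune-like cells, the last led by T cell genes such as Cd3g and Gzma. A cluster of 392 cells with equal numbers of erythroid and plasma cell markers was left unnamed and out of the comparisons. Plates were sorted with different gates: the labels name CD24 for plates of mice 1 (together with Epcam) and 2, CD45 or CD54 together with Epcam for plates of mice 3 and 4, Epcam alone for others of mice 2, 3 and 4, and no gate for 5 plates each of mice 1 and 2, so cell numbers per mouse can follow the sort. The factor genes summed to 2033 ± 829.5 CPM in enterocyte-like, 4172 ± 2081 in goblet-like, 4927 ± 939.6 in enteroendocrine-like and 6574 ± 3535 in immune-like cells (n = 4 mice) and 4622 ± 935 CPM in tuft-like cells (n = 3, as mouse 4 gave 4 cells). Per 100 UMIs of non-landmark ribosomal protein genes this was 15.1 to 36.3 UMIs of factor genes in immune-like cells, 17.2 to 25.4 in enteroendocrine-like, 24.3 to 38.7 in tuft-like, 15.7 to 46.4 in goblet-like and 21.5 to 88.1 in enterocyte-like cells, ranges that overlap, each with mouse 1 at its upper end except in enteroendocrine-like cells. The enterocyte-like cells mix the zones, with 1181 cells at the tip and 354 in the crypt zone (564 and 6 in mouse 1). The mean sum of their crypt zone, given above, exceeded the mean sums of goblet-like, tuft-like and enteroendocrine-like cells. The part of the zone mix in the class levels was not tested.

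Those sums do not carry over into the tests, because the TMM factors ran from 0.21 for the enterocyte-like cells of mouse 1 to 2.29 for the enteroendocrine-like cells of mouse 4. Log2 changes below are therefore relative to the bulk of other genes and not to all UMIs. By edgeR, 34 factor genes were tested in each class. Of these, 1 was higher and none lower in goblet-like cells, where 6.29% of 4263 genes were higher and 13.9% lower (20.2% together). In tuft-like cells 2 were higher and none lower (9.83% and 13.3% of all genes, 23.2% together), in enteroendocrine-like cells none higher and 1 lower (10.8% and 21.2%, 32.0% together), and in immune-like cells 7 higher and 2 lower (26.2% and 28.9%, 55.0% together). With the mouse as a block, Eif4h (-1.42) and Eif4b (-1.89) were also lower in goblet-like cells, Eif6 (-2.0) and Eif4b (-1.76) in tuft-like cells and Eif4g1 (-1.64) in enteroendocrine-like cells, where Eif4g3 (1.28) was higher. DESeq2 also called Eif6 lower in tuft-like cells.

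In goblet-like cells the gene was Eif2s2 (chr2:154871410-154892935), the beta subunit of eIF2. It was at 26.1, 45.3, 49.3 and 54.5 CPM in enterocyte-like and at 642, 482, 529 and 339.7 CPM in goblet-like cells of mice 1 to 4, while enteroendocrine-like cells had 75.4, 79.2, 195 and 266 CPM, tuft-like cells 93.4 to 123 CPM and immune-like cells 19.8 to 107 CPM. The goblet-like values lay far above the enterocyte-like ones in every mouse (log2 change 2.79 ± 0.56, adjusted p = 0.000266), and above those of every other class. Its partner Eif2s1 had a log2 change of 1.31 ± 0.66 (adjusted p = 0.173), and Eif2s3x was too low to test. Goblet-like cells also had higher Wars, Dars and Gars, 3 of 12 tested aminoacyl-tRNA synthetase genes, and higher Asns, the asparagine synthetase, of 4 stress response genes. Of all genes tested, 6.29% were higher and 13.9% lower in goblet-like cells.

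In tuft-like cells Eef2k was at 131, 99.5 and 123 CPM in mice 1 to 3 and at 2.65, 6.97 and 2.42 CPM in the enterocyte-like cells of the same mice. These 2 groups were wide apart (log2 change 3.35 ± 0.55, adjusted p = 8.9e-06 by edgeR), and the tuft-like values exceeded those of goblet-like (0 to 24.4 CPM), enteroendocrine-like (0 to 6.79 CPM) and immune-like cells (0 to 17 CPM), although the 0 of single mice allows 113 to 266 CPM in enteroendocrine-like cells, 127 CPM in the goblet-like cells of mouse 4 and 59.3 CPM in the immune-like cells of mouse 1. The tuft-like values rest on 43 UMIs. Eif4g3, one of the eIF4G scaffolds, was at 74.7, 108 and 61.6 CPM against 9.28, 9.75 and 8.22 CPM (1.89 ± 0.58, adjusted p = 0.0137). Its tuft-like values rest on 4, 37 and 1 UMIs in mice 1 to 3. Without the plates naming CD24, CD45 or CD54, Eif4g3 lost its call and Eef2k was not tested. Tuft-like cells of mouse 2 make up 158 of the 187, and without mouse 2 only 19 factor genes could be tested, neither of these among them, and none was called. The 50 tuft markers summed to 159.9 to 329 CPM in crypt clumps, 76.1 to 249 CPM in the mid-villus and 65.2 to 230.3 CPM at the tip, and their part in the Eef2k values of the clumps was not tested.

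In enteroendocrine-like cells Eif6 was lower (-1.75 ± 0.63, adjusted p = 0.0312 by edgeR). It was at 113, 119.9, 0 and 88.5 CPM there and at 81.3, 125, 75 and 140.5 CPM in enterocyte-like cells, so the CPM overlap. With library sizes outside the ribosomal protein and mitochondrial genes it was -0.47 (adjusted p = 0.532). The call was also lost when any 1 of the 4 mice was left out, with 8 to 11 cells in mice 1, 3 and 4.

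In immune-like cells the 7 genes that rose, of 34 tested, were Eef1a1, Eif4g3 and 5 of the 12 eIF3 subunits tested. Eef1a1 was at 178, 2418, 2927 and 3259 CPM there and at 29.6, 280, 705 and 381 CPM in enterocyte-like cells (1.67 ± 0.68, adjusted p = 0.0364). Eif3e was at 19.8, 173, 195 and 205 CPM against 1.77, 13.2, 35.3 and 20.8 CPM (2.17 ± 0.57, adjusted p = 0.0018 by edgeR). Eif3m (1.89 ± 0.46), Eif3f (1.46 ± 0.5), Eif3h (1.34 ± 0.55), Eif3d (1.13 ± 0.46) and Eif4g3 (1.57 ± 0.5) were also higher. Eif6 was lower in each mouse, at 19.8, 59.4, 42.4 and 53.2 CPM against 81.3, 125, 75 and 140.5 CPM (-2.49 ± 0.6, adjusted p = 0.000779 by edgeR), and Eif4g1, a scaffold, changed by -1.32 ± 0.52. Of the 57 non-landmark ribosomal protein genes 33 were higher, with a median of 1.48, beside a median of 0.44 for the factor genes. The ribosomal count was 51, 3, 22 and 3 without mouse 1, 2, 3 and 4. It was 2 without the plates naming CD24, CD45 or CD54 and 53 with the mouse as a block. With cells assigned by marker sum the ribosomal median was 1.51 and the factor median 0.0. Against mid-villus enterocyte-like cells they were 2.08 and 0.77.

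**Figure D5:**
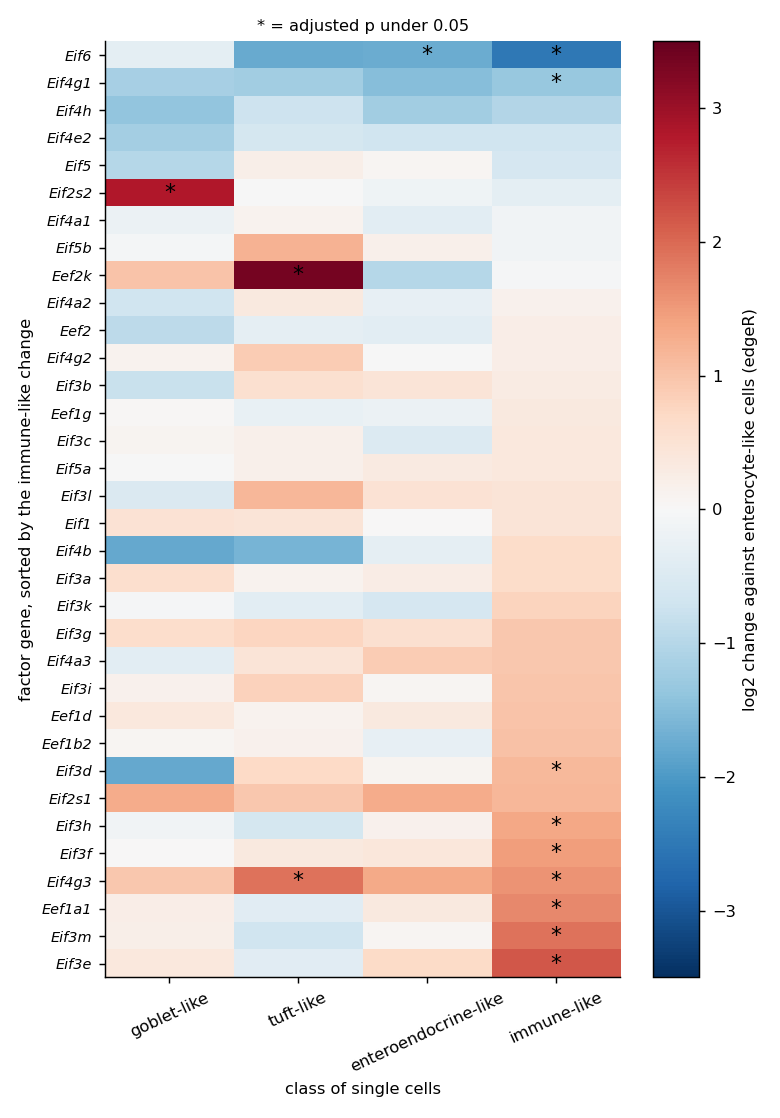
Log2 change against enterocyte-like cells (edgeR, color) for 34 factor genes in goblet-like, tuft-like, enteroendocrine-like and immune-like single cells, sorted by the immune-like change, with an asterisk for an adjusted p under 0.05. Eif2s2 stands out in goblet-like cells at 2.79 and Eef2k in tuft-like cells at 3.35, and the immune-like column runs from Eif6 at -2.49 to Eif3e at 2.17.

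Mouse 1 has 16 immune-like cells, whose 24 immune markers summed to 297 CPM where the other mice had 45256 to 53033 CPM, and whose enterocyte markers were at 18029 CPM against 2142 to 3746 CPM. The label of this cluster thus goes against the markers in mouse 1. Without mouse 1, 17 of 48 factor genes tested were higher and 1 lower in immune-like cells, beside 3901 of all 6587 genes called, Eif4g1 lost its call, and Eif6 kept it (-2.01, adjusted p = 0.000326). Without mouse 2, 2 of 19 tested were higher and 1 lower, beside 373 of all 1747 genes called, and Eef1a1 and Eif3h lost their calls. Without mouse 3, Eif4g1 and Eif4g3 lost their calls. Without mouse 4, 2 of 32 were higher and 1 lower, beside 1135 of all 3545 genes called, and Eef1a1, Eif3f, Eif3h and Eif4g1 lost theirs. With cells assigned by marker sum, Eif3f and Eif4g3 lost theirs. Eif3d and Eif3h lost theirs with DESeq2, and Eif4g1 without the filter on low counts. Eef1a1, Eif3f and Eif3h also lost their calls without the plates naming CD24, CD45 or CD54. Under library sizes outside the ribosomal protein and mitochondrial genes, the median of all genes was 0.92, 2528 of 4263 genes were called, and 21 factor genes were higher and 1, Eif6, lower (-1.33, adjusted p = 0.0207).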

How the data were processed

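Wells were sequenced by MARS-seq, demultiplexed with bcl2fastq 2.15.0.4 and aligned by the authors with STAR within zUMIs to GRCm38 with Ensembl annotation. The deposited values are UMI counts per gene and well, without background subtraction, and neither base calls nor alignments were repeated here. The factor genes and all gene lists were chosen with earlier results of these data known. The filter for clumps asked for 200 genes or more, over 500 UMIs and a mitochondrial share of 30% or less, and the 2% with the lowest landmark share were left out. Each took the zone whose landmark genes it matched best. For single cells the limits were 150 to 1500 genes, 200 to 7000 UMIs and a mitochondrial share of 40%. Those left were clustered with scanpy 1.11.5 (2000 variable genes, 25 components, 20 neighbours, Leiden resolution 0.1) without factor, ribosomal protein or mitochondrial genes. Clusters were named by whichever marker list had most members (3 or more) among their 50 leading genes. No doublet caller was run. The same 384 well barcodes recur on every plate, and 0 wells held identical values.

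Counts were summed per mouse and zone or class with at least 5 wells, since the mouse is the replicate. Sums were tested with the quasi-likelihood test of edgeR 4.0.16 (R 4.3.3, TMM, filterByExpr), with Benjamini-Hochberg adjustment over all genes and a threshold of 0.05. DESeq2 1.42.0 was an alternative. On simulated counts with clump depths and 7827 genes, 84.8% of genes changed by 2 on the log2 scale and 17.5% of those changed by 1 were recovered between tip and crypt, and with goblet-like depths and 3440 genes 85% and 14%, so misses of smaller changes are to be reckoned with. The simulation gave every gene the same spread, changed few genes and held no effect of the mouse, so recovery in the real data can differ. Given with every mouse were the 8 factor genes highest in the crypt and up to 6 called genes with the largest change per comparison and direction, and others by role. Zones or classes of one animal share its number: their deviations from the group means correlated at 0.17 to 0.542 in clumps (15 of 15 pairs over 0.1), at -0.149 to 0.535 in cell classes (23 of 36) and at 0.074 to 0.578 in zones of single cells (10 of 12). Limits given for a count of 0 cover counting error only.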

Additional observations from a re-analysis of the deposited data

Results flagged for a closer look

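In groups of 4 or 5 mice, a mouse far from the rest was looked for in the summed groups and the 8 genes highest in the crypt, and 17 of 100 sets of values, which are not independent, met the criterion, the gap to the nearest mouse as a share of the range (Dixon's 95% value). Chance gives about 1 in 20.

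In clumps, mouse 4 was the highest. In the mid-villus its ribosomal protein genes outside the landmarks stood at 25456 CPM (nearest mouse 12012), Eef1a1 at 1179 CPM (429), Eef1b2 at 364 CPM (116) and Eef1g at 159.7 CPM (75.4). At the tip, its ribosomal protein genes stood at 21296 CPM (6249), Eef1a1 at 806 CPM (126), Eef1b2 at 273 CPM (61.3) and Eef1g at 248 CPM (59.8). Eif2s2 in the mid-villus was highest in mouse 3, at 211 CPM (124).

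In single cells, mouse 1 was the lowest. In its immune-like cells the factor genes summed to 1305 CPM (nearest mouse 7788), the ribosomal protein genes to 3598 CPM (50278), Eef2 was at 138 CPM (685), Eef1b2 at 59.3 CPM (415), Eif5a at 19.8 CPM (141) and Eif3f at 98.8 CPM (261). In enterocyte-like cells of mouse 1, Eef2 was at 79.9 CPM (265), and in its mid-villus zone Eif5a was at 25.3 CPM (44.1).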

How the results depend on the processing

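Of 1981 gene values under the alternatives, 1857 stayed on their side of the threshold (those not called could change sign), 68 lost the call, 55 gained one and 1 was called against the sign of its first value: Eef2k in immune-like cells, at 2.48 (adjusted p = 0.00636 by edgeR) with mid-villus enterocyte-like cells as the reference, against -0.03. Counts of factor genes called stayed within 1.5 times between tip and crypt, mid-villus and crypt, and the zones of single cells, where leaving out a mouse gave 27 to 30, 23 to 29 and 17 to 24. The others moved, and the cause was not tested. Between tip and mid-villus the 2 calls (919 of 7445 genes) became 1 with mouse 6 added (1351 of 6033), 0 with landmarks free of ribosomal genes (31 of 8094) and 1 to 2 without a mouse (1 without mouse 3). Calls among all genes, given in brackets, moved too. In goblet-like cells 1 (859 of 4263) became 4 without the filter (1294 of 20681), 3 by marker sum (854 of 3947), 4 against mid-villus cells (1145 of 4316) and 1 to 4 without a mouse (4 without mouse 1). In tuft-like cells 2 (988 of 4263) became 5 with library sizes outside ribosomal protein and mitochondrial genes (1139), 4 by marker sum (1064 of 3947), 0 without the CD24, CD45 or CD54 plates (394 of 2520) and 0 to 5 without a mouse (5 without mouse 1, 0 without mouse 2). In enteroendocrine-like cells 1 (1364 of 4263) became 2 with DESeq2 size factors (1356), 2 with DESeq2 (1188 of 4251), 4, all higher, with the outside library sizes (1173), 2 against mid-villus cells (1599 of 4316), 0 without those plates (469 of 2520) and 0 to 3 without a mouse (3 without mouse 1). In immune-like cells 9 (2346 of 4263) became 15 without the filter (6698 of 20681), 22 with the outside library sizes (2528), 16 against mid-villus cells (2686 of 4316), 3 without those plates (601 of 2520) and 3 to 18 without a mouse.

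With the mouse as a block, counts became 38 between tip and crypt, 37 between mid-villus and crypt, 6 between tip and mid-villus, 3 in goblet-like, 4 in tuft-like, 3 in enteroendocrine-like and 15 in immune-like cells and 22 in the zones of single cells, and no call was lost. Calls among all genes rose as well, to 4593, 4085 and 2050 of 7445 in clumps, to 1167, 1287, 1665 and 2726 of 4263 in the cell classes and to 2401 of 3819 in the zones.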

Other observations

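Clumps of mouse 6, sorted above 2n on 4 plates, entered the comparisons only as an alternative. Their factor genes summed to 5610.3 CPM in the crypt, 3082 CPM in the mid-villus and 1567 CPM at the tip, and Eef1a1 stood at 1211, 377 and 56.2 CPM. Ribosomal protein genes outside the landmarks summed to 36953, 10492 and 2662 CPM, the same order of zones as in the other mice.

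In pairs alone the factor genes summed to 7345 ± 2099.5, 3572 ± 484 and 2241 ± 1002 CPM in crypt, mid-villus and tip (n = 5 mice), and in larger clumps to 9419 ± 3599.8, 4114 ± 1898 and 3349 ± 1513 CPM (n = 3 mice). Between tip and crypt in pairs alone, 28 of 40 factor genes were lower and none higher (median -1.63), beside 2451 of all 4732 genes called.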
